A study of Mus musculus with 8 samples.

Results

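The kinesin motor genes were taken as every row of the counts table whose symbol is Kif with a number, with or without a letter, or Kifc with a number, which gave 41 of 26667 genes. With 1 role assigned per gene, 12 of them were counted as mitotic kinesins, 17 as transport kinesins and 12 as cilium, signalling or other kinesins. The last group includes Kif2a, Kif2b and Kifc5b, so the 12 mitotic members may not hold every kinesin that acts in mitosis. Their mRNA was compared between undifferentiated pleomorphic sarcomas (UPS, a soft tissue tumour with no line of differentiation) of KP and KPH2 mice. KP mice carry Trp53 fl/fl, and KPH2 mice carry the alleles of KP mice plus Epas1 fl/fl (Epas1 -/- in the labels), which encodes HIF-2α, so both groups share the loss of Trp53. Mice of mixed 129/C57BL/6 strain and of either sex, at least 8 weeks old, were injected with an adenovirus expressing Cre (Ad-Cre) in the hind limb muscle, where any infected cell can recombine. Tumours were collected at 7 weeks from injection, or at the limit set on tumour size. The tumours thus arose in muscle that also holds unrecombined host cells. From fixed sections of each tumour 1 library was made, for 4 KP tumours (KP 5 to KP 8) and 4 KPH2 tumours (KPH2 1 to KPH2 4).

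Kinesins are ATP-driven motors that walk on microtubules. The mitotic members push spindle poles apart, align chromosomes and build the midbody, and their mRNAs are made mainly in cycling cells. The transport members carry vesicles, mitochondria and ciliary cargo along microtubules in most cells, mostly towards the plus ends, and several of them are most abundant in neurons. The study asked how loss of HIF-2α alters the growth of these sarcomas, a question on which the mitotic members bear because they are read from dividing cells.

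The libraries held 6463221 to 13155510 counts each, so that a total of 3 counts corresponded to between 0.223 and 0.445 counts per 1e+06 counts of the scaled library (CPM). The study left out 1 KPH2 tumour as a technical outlier, and KPH2 1 is the tumour absent from its table of 7 tumours. Tests were therefore run on KP 5 to KP 8 against KPH2 2 to KPH2 4, KPH2 1 is shown apart, and results over all 8 tumours are given beside them. Epas1, the deleted gene, was at 59.2, 83.2, 86.9 and 84.1 CPM in KP 5, 6, 7 and 8, at 32.6 CPM in KPH2 1, and at 53.4, 37.7 and 42.5 CPM in KPH2 2, 3 and 4, so every KPH2 tumour was below every KP tumour but none was near 0 (log2 fold change -0.81, SE 0.19, edgeR adjusted p = 0.0742). The 8 mesenchymal markers summed to 17875 CPM or more in every tumour. Their median log2 fold change was -0.42 with 7 of the 8 below 0, and Pdgfra was called lower (-2.02, SE 0.27, edgeR adjusted p = 0.0183), while Vim was at 0.13 (SE 0.29). The 20 skeletal muscle markers all had fitted values above 0 in KPH2 2 to KPH2 4, with 3 called (1.96% of all tested genes were called) and 9 without overlap between the groups (16.9% of all tested genes did not overlap). The epithelial markers summed to between 3.85 and 6.98 CPM in KP, to between 50.1 and 523 CPM in KPH2 2 to KPH2 4 and to 58.3 CPM in KPH2 1. All 5 macrophage markers tested had fitted values below 0 with 0 called, and summed to 1263 to 1897 CPM in KPH2 2 to KPH2 4 against 1737 to 3604 CPM in KP, with overlap for each marker. The 4 endothelial markers were also fitted below 0 with 0 called, and 2 of them did not overlap, beside the same 16.9% of all genes. The part of these cells in the results below was not tested unless a value is given, and in bulk tumour RNA fewer cells of a type cannot be told apart from less RNA per cell.

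A feature that mitotic kinesin genes share was visible in their promoters. The cell cycle genes homology region (CHR), the letters TTTGAA, is known near the start site of many genes that are transcribed before mitosis. It was searched on both strands of the 300 bases from 250 before to 50 after each RefSeq start site (GRCm38.p6). The stretches printed here run from 80 bases before the start site to 20 bases into the transcript, 5′ to 3′ on the strand of the gene, with TTTGAA, or its reverse complement TTCAAA, in capitals. They show 5 mitotic kinesins with the letters close to the start site and Kif18a, the single mitotic member in the promoter table whose window lacked them. The coordinates are chr19:37376302-37376401 (plus strand) for Kif11, chr9:122951001-122951100 (plus) for Kif15, chr7:127042401-127042500 (minus) for Kif22, chr9:61946780-61946879 (minus) for Kif23, chr17:33890614-33890713 (minus) for Kifc1 and chr2:109280658-109280757 (plus) for Kif18a.
Kif11: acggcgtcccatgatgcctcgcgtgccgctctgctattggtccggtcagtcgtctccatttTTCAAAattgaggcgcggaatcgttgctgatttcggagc
Kif15: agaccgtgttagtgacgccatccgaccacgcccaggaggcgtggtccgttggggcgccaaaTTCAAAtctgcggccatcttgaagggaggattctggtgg
Kif22: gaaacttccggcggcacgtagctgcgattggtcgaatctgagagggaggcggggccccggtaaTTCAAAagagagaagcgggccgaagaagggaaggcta
Kif23: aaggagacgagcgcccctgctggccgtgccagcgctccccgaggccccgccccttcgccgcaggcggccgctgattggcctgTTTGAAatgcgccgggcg
Kifc1: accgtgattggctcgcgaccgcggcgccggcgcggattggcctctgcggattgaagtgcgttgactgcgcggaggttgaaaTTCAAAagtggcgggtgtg
Kif18a: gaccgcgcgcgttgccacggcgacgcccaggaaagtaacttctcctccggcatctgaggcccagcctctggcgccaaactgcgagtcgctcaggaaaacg
In Kif11 and Kif15 the letters lay at the same place, from base -19 to base -14 relative to the start site, and in Kif22 from base -17 to base -12. Kif23 had them from base 3 to base 8 and Kifc1 from base 2 to base 7 after the start. With the other members, 10 of the 11 mitotic kinesin genes that had a window held the letters (90.9%), against 5466 of 27025 genes in the whole table (20.2%). Among transport kinesins 1 of 11 held them (9.09%), in Kif1a, and among the other kinesins 3 of 11 (27.3%), in Kif26b, Kif27 and Kifc5b. Kif20a had no entry in the table. A match of 6 letters is a description of the window and shows no binding.

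Of the 41 members, 38 passed the filter on low counts. Kif12 and Kif2b had 0 counts in every tumour, which allows a level of up to 0.445 CPM in the library with the highest such limit, and Kif6 had at most 9 counts in a tumour. Per kilobase of exon, the scale on which genes can be compared, the highest mean level over the 7 tumours belonged to Kif5b, a heavy chain of conventional kinesin (kinesin-1), at 56.6 CPM per kb. Kif1c, a vesicle motor, followed with 22.8 to 42.5 CPM per kb in these tumours, then Kif2a, which depolymerizes microtubule ends, at 20.6 and Kif1b, a carrier of mitochondria and vesicles, at 20.2 CPM per kb. Kif5b exceeded Kif1c in each of the 8 tumours, whereas Kif2a and Kif1b did not differ beyond their spread between tumours. Kif20a, Kif11 and Kif3a came next and could not be ordered, at 15.8 CPM per kb each.

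**Figure D1:**
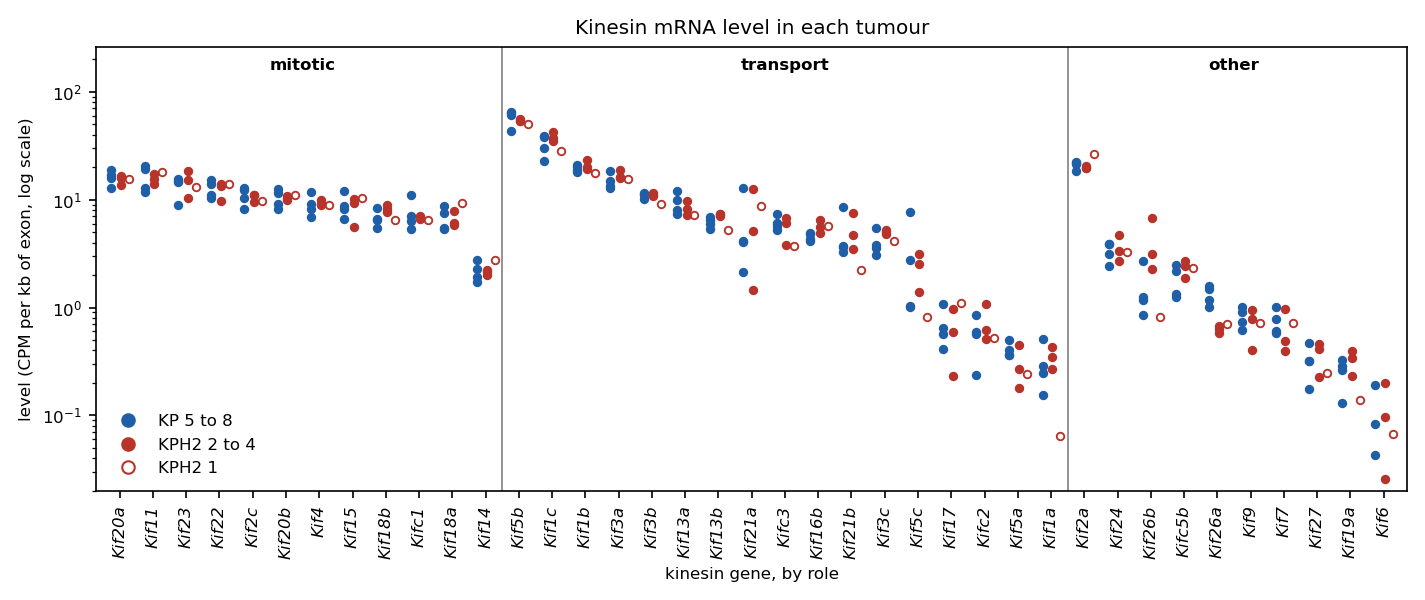
Level of each detected kinesin gene in CPM per kilobase of exon (log axis) in every tumour, grouped by role. Filled points are KP 5 to 8 and KPH2 2 to 4, open points are KPH2 1, tumours at 0 counts are not drawn, and mitotic genes lie in a narrow band with Kif14 below it while transport genes run from 56.6 (Kif5b) down to 0.321 (Kif1a) in mean level.

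The mitotic kinesins were expressed within a narrow band. Their mean levels ran from 2.15 CPM per kb for Kif14, a midbody motor, to 15.8 for Kif20a, with a median of 9.73, and 11 of the 12 were at 5 CPM per kb or more. The 17 transport kinesins had a lower median of 5.84 CPM per kb and a far wider range, with 4 of them (Kif1a, Kif5a, Kif17 and Kifc2) under 1 CPM per kb. Together the mitotic members made up 35.9 ± 4.82% of the summed kinesin level per kb in KP (SD, n = 4) and 35.1 ± 1.20% in KPH2 2 to KPH2 4 (SD, n = 3). The share was 39.1% in KPH2 1, and it was highest in KP 5 (40.9%) and lowest in KP 8 (30.7%), so that the KP tumours spanned all KPH2 values. Transport members took 54.7 ± 4.68% and 55.4 ± 1.67% of the sum.

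No kinesin gene was called different between KPH2 and KP tumours. In edgeR's quasi-likelihood test 0 of 38 kinesins passed an adjusted p of 0.05, where 1.96% of all 14867 tested genes did (1.24% higher and 0.72% lower in KPH2). At an unadjusted p under 0.05 there were 2 (Kif26a lower and Kif26b higher in KPH2), a threshold that 17.8% of all genes passed. DESeq2 called these same 2 of the 38 kinesins, where it called 1179 of all 14867 tested genes. With KPH2 1 included, edgeR called 0 of 38 kinesins at a background of 0.00675%, and 1 (Kif26a) had an unadjusted p under 0.05, as 14.7% of all genes did.

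**Figure D2:**
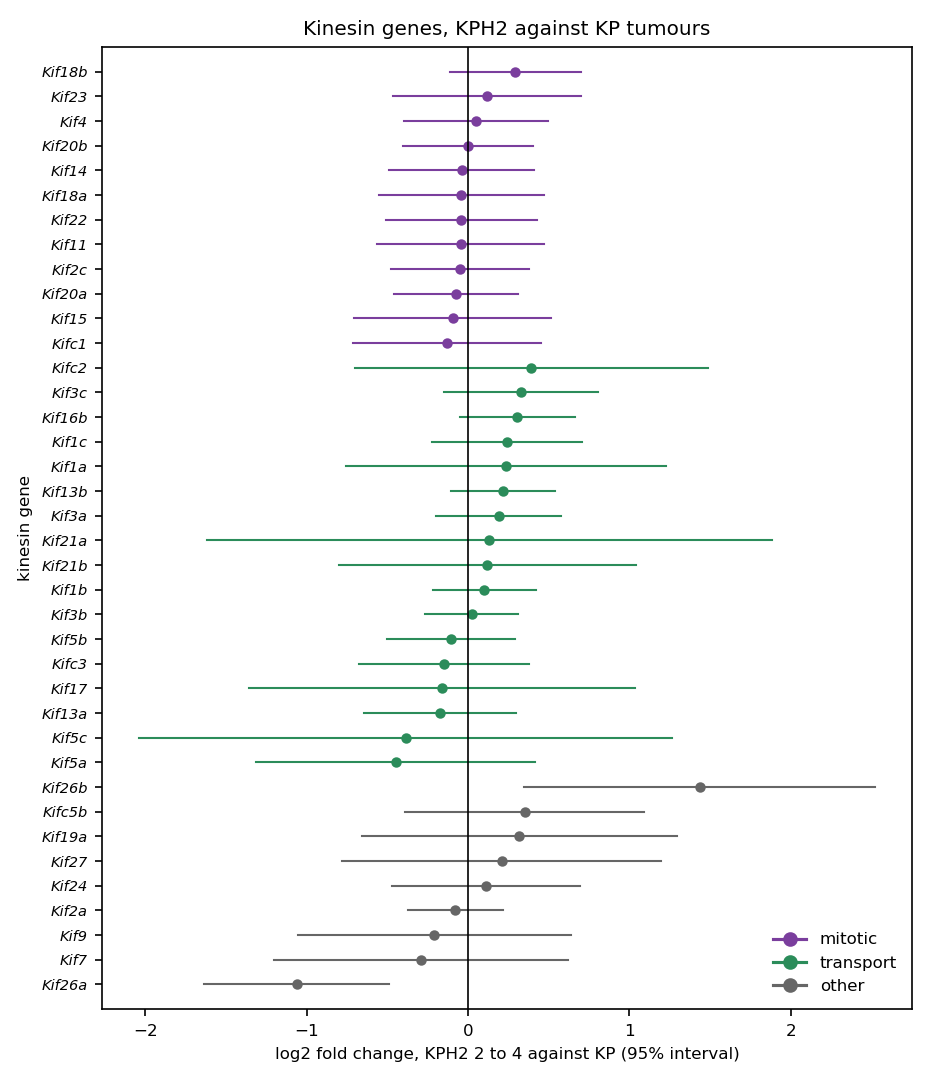
Fitted log2 fold change of the 38 tested kinesin genes, KPH2 2 to 4 against KP 5 to 8, with 95% intervals (lines), grouped by role. The 12 mitotic genes lie between -0.13 and 0.29 with every interval crossing 0, and only the intervals of Kif26a and Kif26b leave out 0.

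The 4 mitotic kinesins of the selection rule lie at different steps of division and had nearly the same level in both groups. Kif11 (Entrez 16551, chr19:37376382-37421863), the motor that slides spindle microtubules apart and keeps the spindle bipolar, was at 98.8, 92.2, 56.2 and 61.4 CPM in KP 5, 6, 7 and 8, at 87.6 CPM in KPH2 1, and at 66.9, 82.8 and 75.3 CPM in KPH2 2, 3 and 4. Both the highest and the lowest values were in KP, and every KPH2 tumour lay between them. The mean was 77.2 ± 21.5 CPM in KP (SD, n = 4) and 75.0 ± 7.94 CPM in KPH2 2 to KPH2 4 (SD, n = 3), a log2 fold change of -0.04 (SE 0.23, edgeR adjusted p = 0.947). Its 95% interval reached from 0.678-fold to 1.39-fold, so a change of smaller size could not be detected with these tumours. Counting KPH2 1 among the KPH2 tumours brought it to 0.02.

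Kif20a (Entrez 19348, chr18:34624624-34633277), which brings the Aurora B complex to the central spindle for cytokinesis, was at 76.0, 67.2, 64.0 and 51.4 CPM in KP 5, 6, 7 and 8, at 62.2 CPM in KPH2 1, and at 55.1, 63.7 and 65.7 CPM in KPH2 2, 3 and 4. Again the KPH2 tumours lay inside the KP range, with a log2 fold change of -0.07 (SE 0.17, edgeR adjusted p = 0.868). Of its exon bases, 31.8% are shared with Cdc23 on the opposite strand, and the strand setting of the counting is not given in the sources used here, so its reads may include those of Cdc23.

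Kif23 (Entrez 71819, chr9:61917277-61946810), which forms the centralspindlin complex with Racgap1, was at 49.1, 50.8, 53.2 and 30.2 CPM in KP 5, 6, 7 and 8, at 44.4 CPM in KPH2 1, and at 35.5, 51.5 and 62.4 CPM in KPH2 2, 3 and 4. KP 8 was low and KPH2 4 high, and the groups overlapped, with a log2 fold change of 0.12 (SE 0.26, edgeR adjusted p = 0.858), which was 0.61 with the mean level of 20 skeletal muscle markers as a covariate. Kif2c (Entrez 73804, chr4:117159633-117182624), a depolymerase that corrects faulty attachments at centromeres, was at 40.7, 38.8, 32.9 and 26.1 CPM in the KP tumours, at 30.7 CPM in KPH2 1, and at 30.4, 34.9 and 35.2 CPM in KPH2 2, 3 and 4. Again KPH2 values fell within those of KP, with a log2 fold change of -0.05 (SE 0.19, edgeR adjusted p = 0.926). In exact 2-sided permutation tests over the 35 splits of the 7 tumours the p-values were 0.97 for Kif11, 0.74 for Kif20a, 0.66 for Kif23 and 0.94 for Kif2c, where the smallest possible was 0.029. Adjusted by Benjamini-Hochberg over 6 genes, the values were 0.97 for each of the 4. The other 2 genes were Kif26a and Kif26b, which were picked by their p in these same data. Their permutation p-values entered this adjustment but are not printed.

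**Figure D3:**
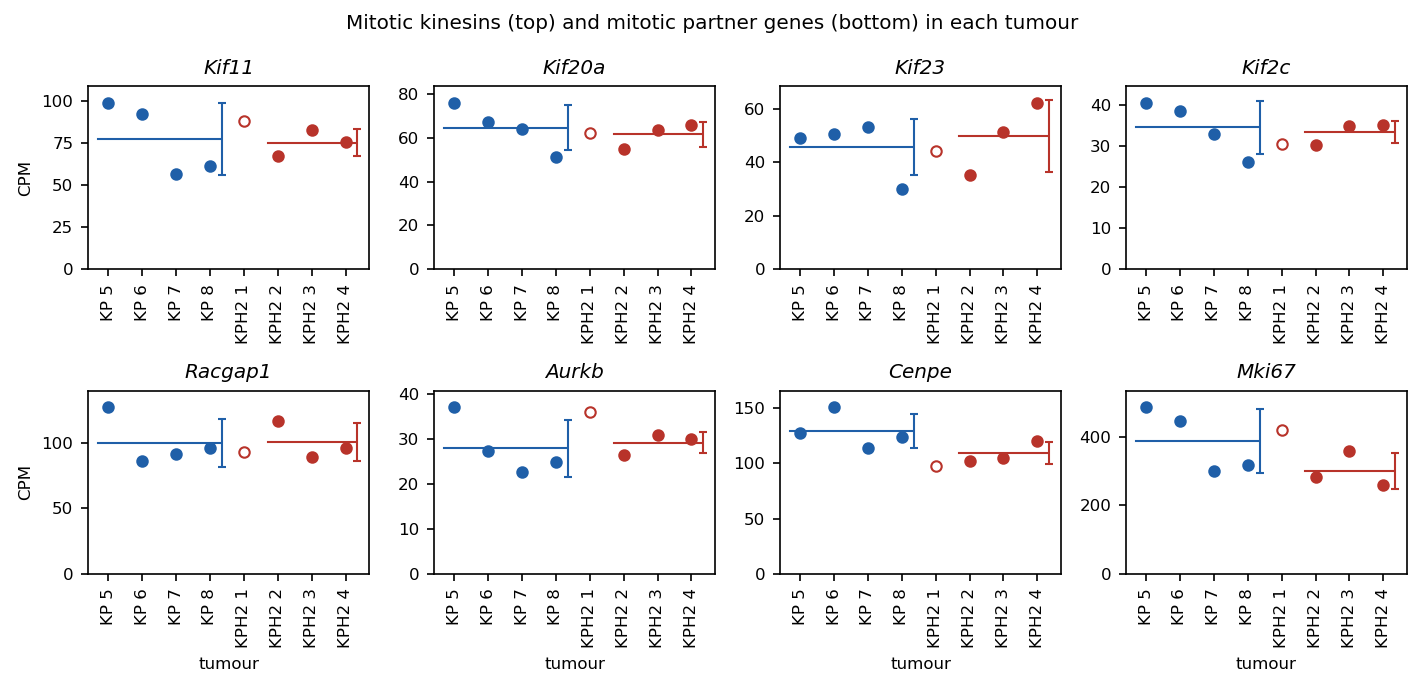
Level in CPM of the 4 mitotic kinesins of the rule (top) and of 4 genes that work with them (bottom) in each tumour, with horizontal lines for the means of KP 5 to 8 and KPH2 2 to 4 and bars for the SD. KPH2 1 (open) is not in the means, and for Kif11 every KPH2 tumour lies between the lowest (56.2) and the highest (98.8) KP value.

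The other 8 mitotic kinesins had similarly small differences. Over the 12 mitotic members the median log2 fold change was -0.04, beside -0.02 over all tested genes, with 4 fitted values above 0 and 8 below. The values ran from -0.13 for Kifc1, a minus-end motor that clusters spindle poles, to 0.29 for Kif18b, which shortens astral microtubules. Every one of the 12 intervals lay between 0.5-fold and 2-fold, the widest bounds being 0.611-fold for Kifc1 and 1.63-fold for Kif23. For 8 of the 12 genes KPH2 2 to KPH2 4 all lay within the KP range, and for 10 of the 12 KPH2 1 did. Of the 17 transport kinesins the same held for 5 and 6, and the share over all genes was not counted. With all 8 tumours the median was 0.02. Kifc1 has a close copy, Kifc5b (3.32 to 7.10 CPM over the 7 tumours), and since only unique alignments were counted, the values of both are uncertain.

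KP 5 had the highest value of the 7 tumours for 9 of the 12 mitotic kinesins, and the lowest values were held by KP 8 for 5 genes, by KP 7 for 3 and by KP 6 for 2. The mean log2 CPM over the 12 genes ran from 4.88 to 5.47 in KP, from 5.02 to 5.23 in KPH2 2 to KPH2 4 and was 5.24 in KPH2 1. A single mitotic kinesin differed between its highest and lowest of the 7 tumours by 1.48-fold (Kif20a) to 2.16-fold (Kif15, a second spindle motor). Among transport kinesins the same ratio ran from 1.15-fold (Kif3b) to 8.81-fold (Kif21a).

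**Figure D4:**
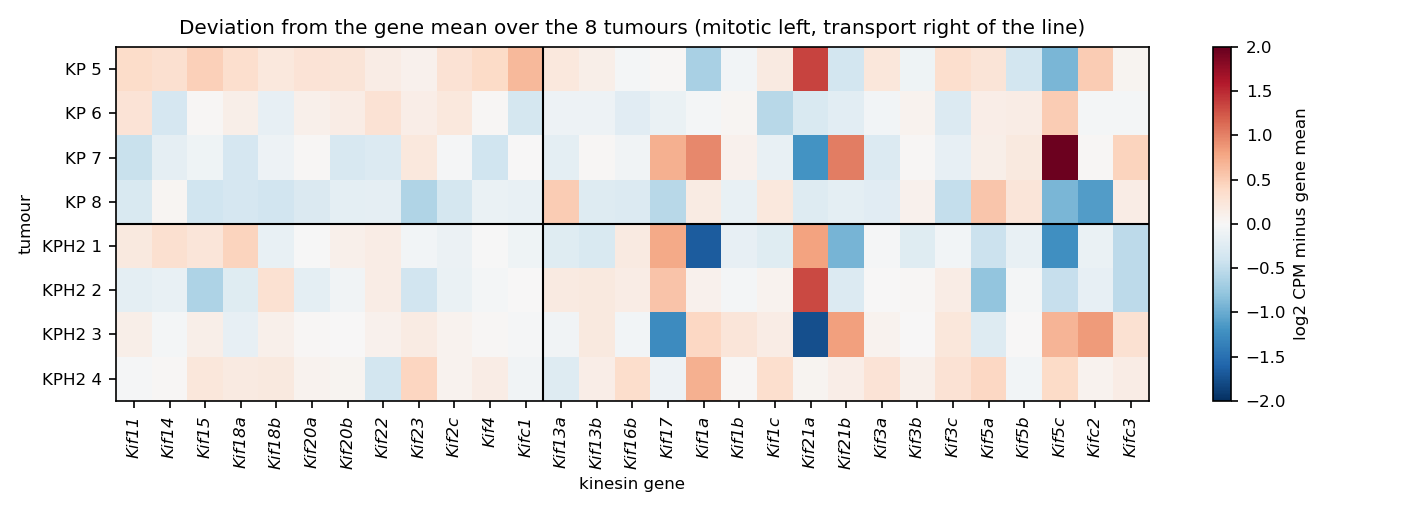
Log2 CPM of each mitotic (left) and transport (right) kinesin in each tumour minus the mean of that gene over the 8 tumours, as colour from -2 (blue) to 2 (red), with KP tumours above the horizontal line. KP 5 is red across most mitotic genes, and the strongest colours are in the transport genes Kif21a, Kif5c and Kif1a.

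Genes that work beside the mitotic kinesins were also close in both groups. Of 25 mitotic partners, 0 passed an unadjusted p of 0.05 in edgeR, which 17.8% of all genes did, and 0 were called by their adjusted p, beside 1.96% of all genes, and the median log2 fold change was 0.06. Racgap1, the partner of Kif23, had a log2 fold change of 0.01 (SE 0.18) and Aurkb, the kinase that Kif20a relocates, one of 0.06 (SE 0.20). Mki67, the antigen of cycling cells, was at 486, 448, 300.2 and 318 CPM in KP and at 282, 359 and 259.7 CPM in KPH2 2, 3 and 4, with 419 CPM in KPH2 1. KP 5 and KP 6 were highest and the groups overlapped (log2 fold change -0.37, SE 0.22, edgeR adjusted p = 0.432). Cenpe, a kinetochore kinesin whose symbol is outside the rule, had -0.24 (SE 0.15), Cdk1 had -0.32 (SE 0.23) and Aurka 0.27 (SE 0.18). Mad2l1, a spindle checkpoint protein, was lower in each of KPH2 2 to KPH2 4 than in any KP tumour (log2 fold change -0.22, SE 0.14, edgeR adjusted p = 0.475), but was 49.6 CPM in KPH2 1, above all KP values. It was the 1 of the 25 partners without overlap among the 7 tumours, beside 16.9% of all genes.

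The transport kinesins had a median log2 fold change of 0.12, with 11 values above 0 and 6 below, where 48.0% of all tested genes were above 0, and 0 of 17 passed an unadjusted p of 0.05 in edgeR, beside 17.8% of all genes. Their median was 0.04 with all 8 tumours. The difference between the mitotic and the transport median was -0.16, which was not tested. It was 0.09 without KP 5, -0.0066 without KP 6 and -0.020 with all 8 tumours. In 10 of the 17 genes the interval lay between 0.5-fold and 2-fold, and the widest belonged to Kif5c and Kif21a.

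The 4 most abundant transport kinesins per kb overlapped between the groups. Kif5b (Entrez 16573, chr18:6201005-6241524) was at 259, 371, 384 and 394 CPM in KP 5, 6, 7 and 8, at 302 CPM in KPH2 1, and at 326, 334 and 322 CPM in KPH2 2, 3 and 4. KP 5 stood below the rest, and the KPH2 values lay inside the KP range (log2 fold change -0.11, SE 0.17). Kif1c (Entrez 16562, chr11:70700396-70731970) was at 276, 166, 220.3 and 283 CPM in KP, at 207 CPM in KPH2 1, and at 257, 271 and 309 CPM in KPH2 2, 3 and 4, where KPH2 4 was highest and KP 6 lowest (log2 fold change 0.24, SE 0.20). Kif1b (Entrez 16561, chr4:149176319-149307773) was at 285, 304, 316 and 268 CPM in KP, at 265 CPM in KPH2 1, and at 290.1, 353 and 302 CPM in KPH2 2, 3 and 4 (log2 fold change 0.10, SE 0.14). KPH2 3 was above and KPH2 1 below every other tumour. Kif3a (Entrez 16568, chr11:53565701-53604248), a kinesin-2 subunit that moves cargo into the cilium, was at 59.3, 48.4, 41.8 and 43.1 CPM in KP, at 49.95 CPM in KPH2 1, and at 50.9, 52.8 and 61.2 CPM in KPH2 2, 3 and 4. KP 5 and KPH2 4 were the highest (log2 fold change 0.19, SE 0.17). The edgeR adjusted p-values of these 4 genes were 0.808, 0.595, 0.763 and 0.614 in the order given.

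One transport kinesin had groups that did not overlap among the 7 tumours, as 16.9% of all genes did. Kif13b, a vesicle motor, was at 62.2, 53.5, 58.6 and 48.0 CPM in KP and at 65.8, 65.5 and 62.9 CPM in KPH2 2, 3 and 4. KP 5 and KPH2 4 nearly met, the log2 fold change was 0.22 (SE 0.14, edgeR adjusted p = 0.472), and KPH2 1 at 46.5 CPM lay below every other tumour. KPH2 1 was the lowest of the 8 tumours for 7 of the 17 transport kinesins.

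On the cargo side of these motors, of 13 light chains and adaptors 11 were tested, and all 11 had fitted values above 0, with a median of 0.16 and 0 at an unadjusted p under 0.05 in edgeR, where 48.0% of all genes were above 0 and 17.8% passed that p. The list summed to 670 to 918 CPM in KP, to 837 to 904 CPM in KPH2 2 to KPH2 4 and to 761 CPM in KPH2 1. Klc1, a kinesin-1 light chain, had a log2 fold change of 0.31 (SE 0.16, edgeR adjusted p = 0.357). Klc4 had one of 0.34 (SE 0.17) and Rhot2, which ties motors to mitochondria, one of 0.30 (SE 0.16). In KPH2 1 Klc4 was at 10.2 CPM, below every KP tumour, and Rhot2 at 38.1 CPM, above every KP tumour. Kifap3, the adaptor of kinesin-2, had 0.13 (SE 0.28), and the highest fitted value was 0.44 (SE 0.33) for Mapk8ip1. Mapk8ip3, an adaptor of kinesin-1, was 73.5 to 100.8 CPM in KP and 102.7 to 113.4 CPM in KPH2 2 to KPH2 4, but 90.5 CPM in KPH2 1. It was the 1 of the 11 tested without overlap among the 7 tumours, beside 16.9% of all genes. The opposing motor, dynein with its activator dynactin, had 16 genes tested, 0 at an unadjusted p under 0.05 (17.8% of all genes) and a median of 0.10. Dync1h1, its heavy chain, had a log2 fold change of 0.20 (SE 0.15), and Dync1i2 fitted at 0.25 (SE 0.14) and Dctn5 at -0.33 (SE 0.20). Dynll2, a light chain, fitted at -0.34 (SE 0.19, edgeR adjusted p = 0.393), with 44.6 to 69.7 CPM in KP and 38.3 to 43.5 CPM in the 4 KPH2 tumours. It was the 1 of the 16 genes without overlap, beside 16.9% of all genes over the 7 tumours and 8.21% over the 8.

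Kif21a and Kif5c had the widest spread within the groups of all kinesins, and like Kif21b and Kif1a they are transport members known from neurons. The 4 genes given here were picked with their values in view. Kif21a, which halts microtubule growth at the cell edge, was at 82.9, 26.0, 13.9 and 26.8 CPM in KP 5, 6, 7 and 8, at 56.2 CPM in KPH2 1, and at 81.0, 9.41 and 33.4 CPM in KPH2 2, 3 and 4. Kif5c, a kinesin-1 heavy chain, was at 6.98, 19.0, 52.3 and 7.02 CPM in KP, at 5.59 CPM in KPH2 1, and at 9.63, 21.4 and 17.4 CPM in KPH2 2, 3 and 4. In KP 7 Kif5c was thus highest while Kif21a was the lowest of the KP tumours, and KPH2 3 combined the highest Kif5c of the KPH2 tumours with the lowest Kif21a of all 8. The SD of log2 CPM within groups was 1.28 for Kif21a and 1.13 for Kif5c, above those of 97.3% and 95.9% of all tested genes.

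Kif21b, the paralogue of Kif21a, was at 29.9, 33.4, 78.7 and 33.9 CPM in KP, at 20.1 CPM in KPH2 1, and at 32.1, 68.1 and 42.6 CPM in KPH2 2, 3 and 4. Kif1a, the carrier of synaptic vesicle precursors, was at 1.34, 2.12, 4.45 and 2.49 CPM in KP, at 0.559 CPM in KPH2 1, and at 2.34, 3.002 and 3.72 CPM in KPH2 2, 3 and 4. Both were highest in KP 7 and lowest in KPH2 1. Of 8 neuron markers 6 were tested, 3 with fitted values above 0 and 3 below, 0 of them called, and the list summed to between 23.3 and 147 CPM in KP, to between 198 and 320 CPM in KPH2 2 to KPH2 4 and to 53.7 CPM in KPH2 1. Most of the sum was Nefl and Nefm, neurofilament genes, at 109 and 24.7 CPM in KP 5 and at 189 and 75.4 CPM in KPH2 2. The lowest sum was in KP 7, where Kif5c, Kif21b and Kif1a were highest and Kif21a was low, and the highest KP sum was in KP 5, where Kif21a was highest. Rbfox3, a marker of mature neurons, was at 0 counts in KP 5 and at most 0.450 CPM elsewhere, and the part of neurons in these levels was not tested. None of the 4 genes differed between the groups in edgeR, with adjusted p-values from 0.835 to 0.952.

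**Figure D5:**
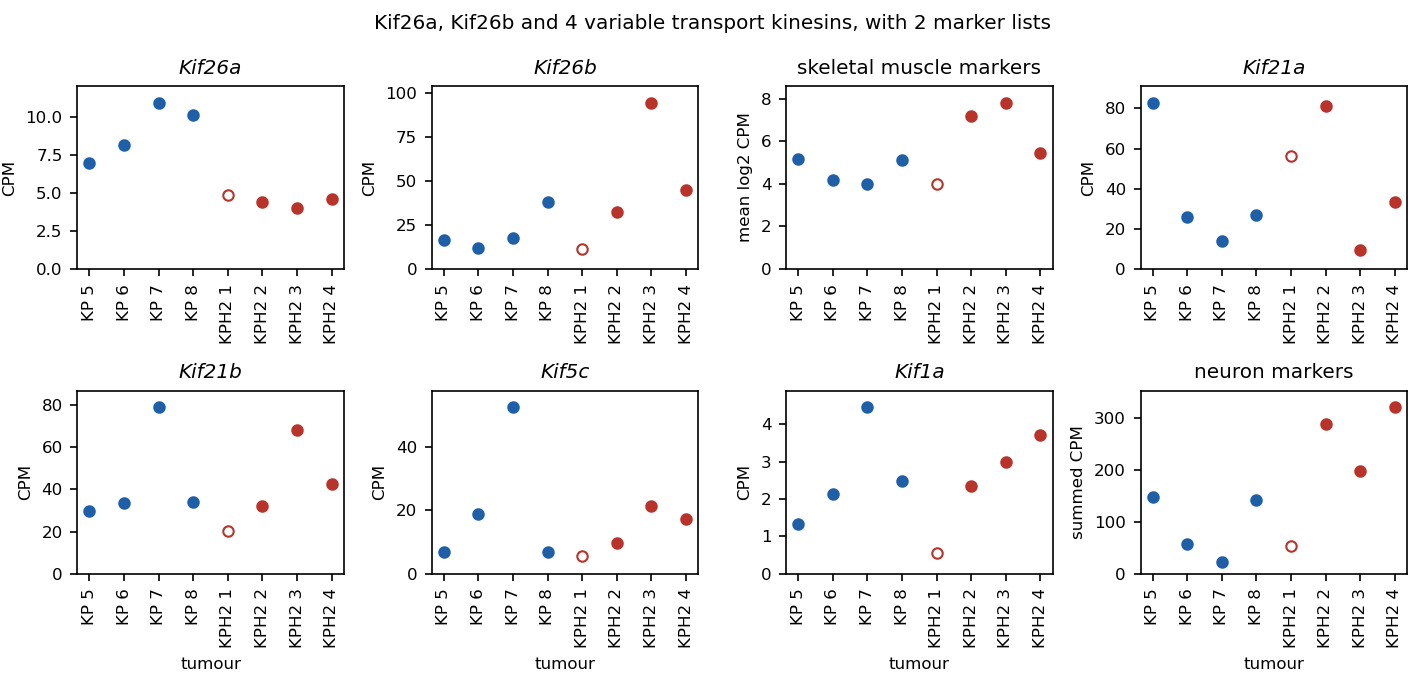
Values in each tumour of Kif26a, Kif26b and 4 transport kinesins in CPM, of the mean log2 CPM of 20 skeletal muscle markers and of the summed CPM of the neuron markers. Blue points are KP, red points KPH2 2 to 4 and open points KPH2 1, and Kif26a lies lower in all 4 KPH2 tumours (4.00 to 4.88) than in any KP tumour (6.98 to 11.0).

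Among the remaining kinesins, Kif26a and Kif26b stood apart. They are a pair of atypical kinesins thought to lack motor activity. Kif26a (Entrez 668303, chr12:112143974-112181747), known to dampen GDNF and Ret signalling in enteric neurons, was at 6.98, 8.21, 11.0 and 10.2 CPM in KP 5, 6, 7 and 8, at 4.88 CPM in KPH2 1, and at 4.41, 4.00 and 4.62 CPM in KPH2 2, 3 and 4. All 4 KPH2 tumours were below all 4 KP tumours, which held for 8.21% of all genes over the 8 tumours in either direction. The log2 fold change was -1.06 (SE 0.25), with an unadjusted p of 0.00247 and an adjusted p of 0.0724 in edgeR, which misses the threshold. DESeq2 gave an adjusted p of 0.0107, and over the alternatives with a test its adjusted p lay between 0.0107 and 0.787. With KPH2 1 the log2 fold change was -1.02 (SE 0.22, edgeR adjusted p = 0.127).

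Kif26b (Entrez 269152, chr1:178529125-178932857), which acts in the Wnt5a and Ror pathway and in kidney development, went the other way. It was at 16.5, 12.03, 17.6 and 38.1 CPM in KP 5, 6, 7 and 8, at 11.5 CPM in KPH2 1, and at 32.6, 94.8 and 44.9 CPM in KPH2 2, 3 and 4. KPH2 3 was far above the rest, KP 8 overlapped KPH2 2, and KPH2 1 was the lowest of all 8. The log2 fold change was 1.44 (SE 0.47), with an unadjusted p of 0.0160 and an adjusted p of 0.169 in edgeR, and DESeq2 gave an adjusted p of 0.0325. Including KPH2 1 gave 1.12 (SE 0.60, edgeR adjusted p = 0.423), and leaving out 1 tumour at a time gave 0.87 (without KPH2 3) to 1.89 (without KP 8, edgeR adjusted p = 0.0877).

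The mean log2 CPM of the 20 skeletal muscle markers ran from 4.01 to 5.15 in KP and from 5.43 to 7.81 in KPH2 2 to KPH2 4, with the highest value in KPH2 3, and was 4.00 in KPH2 1. No muscle marker was at 0 counts in any tumour. With that mean as a covariate the log2 fold change of Kif26b was 0.47 (edgeR adjusted p = 0.947). That of Kif26a was -0.82 (edgeR adjusted p = 0.787). Under this covariate 0 of 38 kinesins were called, and calls over all 14867 tested genes went from 292 to 3. The marker mean did not overlap between KP and KPH2 2 to KPH2 4, so this fit can hardly tell muscle content apart from genotype. The part of muscle in these levels was not tested.

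The other 7 tested members of mixed role had fitted values from -0.29 for Kif7, a regulator of Hedgehog signalling in the cilium, to 0.35 for Kifc5b. Kif2a was between 107 and 129.9 CPM in the 7 tumours and at 154 CPM in KPH2 1, above all of them, with a log2 fold change of -0.08 (SE 0.13). Kif24, which restrains cilium growth at the centriole, was between 13.7 and 26.6 CPM (log2 fold change 0.11, SE 0.25). Kif7, Kif9, Kif19a and Kif27 were scarce, at 4.68 CPM or less in every tumour. Exons shared with a gene on the opposite strand also touch Kif3c (37.8% of its exon bases), Kif7 (19.1%), Kif4 (15.1%) and Kif2a (13.2%).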

How the data were processed

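RNA-seq counts of 8 tumours were used. Per the labels and the methods of the study, the authors prepared stranded libraries after ribosomal RNA depletion, used STAR 2.4 to place reads on GRCm38, and HTSeq 0.6.1 to count uniquely placed reads over each RefSeq gene. The submitters' processing notes also name CASAVA 1.8.2 and DESeq2 1.6. The deposited counts are raw, and the deposited log2 values (DESeq2's regularized log, shrunken for low counts) served as an alternative without a test. Fixed tissue yields fragmented RNA, which may lower counts unevenly.

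Total counts ran from 6463221 to 13155510, and the floor of 3 counts covers counting error only, whereas the intervals of fold changes come from the edgeR fit and include the spread between tumours. Counts of all genes were fitted in R 4.3.3 with edgeR 4.0.16 (TMM, minimum count 10, minimum total 15, robust quasi-likelihood, no covariates). The p-values were adjusted by the Benjamini-Hochberg method across every gene tested, and genes under 0.05 were called. CPM used TMM library sizes over the 8 tumours, log2 CPM a prior count of 2, and levels per kb the exon length of GENCODE M21. All 41 members matched RefSeq positions. No library pair agreed within sampling noise (the closest, KP 6 and KP 8, differed by a chi-square per degree of freedom of 30.4). The labels do not say that tumours came from separate mice, so p-values measure the spread between these samples. The fit was also run on simulated counts with changes larger than those of any kinesin, so that run does not bear on small differences. A further allele that both groups carry is not reported here.

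Values in every tumour are given for the 4 mitotic kinesins of the rule, members with an unadjusted p under 0.05 and the 4 transport kinesins highest per kb. Named partners include those of smallest p. The members and lists were chosen with earlier results of these data known, and the promoter motif and stretches were chosen after the files were seen. Alternatives were all 8 tumours, other size factors, other filters, DESeq2 1.42.0, edgeR without robust estimates, a muscle covariate, the deposited log2 values and leaving out each tumour.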

Additional observations from a re-analysis of the deposited data

Results flagged for a closer look

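In 6 of 76 groups of 4 tumours, 1 tumour lay apart from the other 3 on the scale of log2 CPM. Its gap divided by the range exceeded Dixon's 95% limit, where chance gives about 1 in 20. The ratios below are of log2 CPM. The levels beside them are in CPM and give other ratios, so the count of 6 holds for the log2 scale only. Each of the 6 fell in a different tumour. Kif13b was lowest in KPH2 1 at 46.5 CPM against 62.9 to 65.8 CPM (ratio 0.869). Kif15 was lowest in KPH2 2 at 27.2 CPM against 45.3 to 49.9 CPM (ratio 0.843). Kif22, a chromosome-arm motor, was lowest in KPH2 4 at 20.5 CPM against 28.1 to 29.3 CPM (ratio 0.882). Kif23 was lowest in KP 8 at 30.2 CPM against 49.1 to 53.2 CPM (ratio 0.857). Kif5b was lowest in KP 5 at 259 CPM against 371 to 394 CPM (ratio 0.854). Kif21b was highest in KP 7 at 78.7 CPM against 29.9 to 33.9 CPM (ratio 0.872).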

How the results depend on the processing

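No paired analysis was possible because the replicate numbers of the labels are not shared between the groups. Of 160 values of single kinesins under the alternatives, 145 kept their direction and their side of the threshold, and 13 changed sign. The 145 include the 10 from the deposited log2 values, which have no test and so only a direction. The other 2 passed the threshold, namely Kif26a and Kif26b under DESeq2, which called 2 of 38 kinesins and 1179 of 14867 genes. The number of all genes called by edgeR was 1 with all 8 tumours, 3 with the muscle covariate and 55 to 349 when a tumour was left out, and 0 kinesins were called in each of these. Kif11 was 0.018 with all 8 tumours, and Kif20a 0.010 and Kif2c 0.033 with the muscle covariate, under which Kif11 was -0.18 and Kif23 0.61, the widest move among the 4 mitotic kinesins of the rule. When a tumour was left out, Kif11 ran from -0.17 to 0.11, Kif20a from -0.17 to 0.024, Kif2c from -0.17 to 0.049 and Kif23 from -0.073 to 0.32, and the difference between the mitotic and transport medians from -0.23 to 0.095, the last without KP 5. Without KP 5, 4 of 37 kinesins had an unadjusted p under 0.05 in edgeR (Kif18b, Kif26a, Kif26b and Kif3c), as did 19.8% of all genes in that fit, and without KPH2 3 only Kif26a did, with 14.9% of all genes. The cause of these shifts was not tested. With 4 and 3 tumours the intervals of the mitotic kinesins leave room for changes from 0.611-fold to 1.63-fold, and members near 1 CPM rest on few counts.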
